A study of Mus musculus with 15 samples.

Results

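Meis1, Meis2, Meis3, Pbx2, Pbx3 and Pbx4 are 6 genes of the TALE class of homeobox genes, named for extra amino acids in a loop of the homeodomain. They were chosen by name, out of 22350 protein-coding genes of chromosomes 1 to 19 and X. No measured value was a criterion, but earlier results of these data were known when the choice was made. Each was examined over its gene body in the mm9 build of the mouse genome plus 100 kb on either side. The peaks and islands in these 6 windows were compared between αTN4 cells carrying a control shRNA, αTN4 cells carrying a Pax6 shRNA (Pax6 KD), and newborn lens of CD-1 mice at postnatal day 1. αTN4 is a mouse lens epithelial cell line transformed with SV40 T antigen, and both shRNA populations were pools of infected cells kept after selection with puromycin. Control cells had ChIP-seq of Pax6, RNA polymerase II (Pol2), H3K4me1, H3K4me2 and H3K4me3, Pax6 KD cells had the 3 histone marks, and lens had H3K4me2. Each list came from 1 library per condition, so no p-value is given, and a difference between conditions cannot be told apart from a difference between libraries. RNA levels were not analysed here.

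Meis proteins bind DNA as partners of Pbx proteins, often together with Hox proteins, and Pbx proteins help to hold Meis proteins in the nucleus. Meis1 and Meis2 are expressed in the early eye and bind an enhancer that drives Pax6 in the surface ectoderm from which the lens forms. Meis3 is known from hindbrain patterning. Pbx2 and Pbx3 are widely expressed in embryos, and Pbx4 is best known from the testis. H3K4me3 marks active promoters, H3K4me1 is typical of enhancers, and H3K4me2 is found at both.

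The genes differed in size and surroundings. Meis1 (ENSMUSG00000020160.10, chr11:18780433-18918961, minus strand), Meis2 (ENSMUSG00000027210.11, chr2:115688800-115891575, minus strand) and Pbx3 (ENSMUSG00000038718.7, chr2:34026977-34228660, minus strand) are 139, 203 and 202 kb long. Each shares its window with 1 other protein-coding gene. Meis3 (ENSMUSG00000041420.9, chr7:16760729-16771853, plus strand), Pbx2 (ENSMUSG00000034673.7, chr17:34728211-34734345, plus strand) and Pbx4 (ENSMUSG00000031860.9, chr8:72356523-72397062, plus strand) are 11.1, 6.14 and 40.5 kb long, and share theirs with 9, 13 and 11 other protein-coding genes. Of the 113 control H3K4me2 peaks in the 6 windows, 37 lay nearest to a transcript start of the member itself. Many regions in the Meis3, Pbx2 and Pbx4 windows were therefore at promoters of neighbours, and these are named where they are described.

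The full lists held 504 Pax6 peaks, 17204 Pol2 peaks and 38007 and 18417 H3K4me1 islands in control and KD cells. Their H3K4me1 islands held 3289553 and 1849269 ChIP reads, and the depth of the other libraries is unknown. H3K4me3 stood within 2 kb of a transcript start of 7 of 9 lens markers in control and in KD cells, among them Pax6, Prox1 and the crystallins Cryaa and Cryab, and was absent at Foxe3 and Cdh1. Lens H3K4me2 was present at all 9. Of 3 markers each of retina, blood, endothelium and pigment cells, none had H3K4me3 in control or KD cells. H3K4me2 stood at 2 endothelial markers in control cells (Pecam1 and Tek), and in lens at 1 retinal (Crx), 2 endothelial (Cdh5 and Tek) and 1 pigment cell marker (Dct). Control Pol2 stood at 1 blood marker (Cd68). The part of such signal in the values below was not tested.

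The sequences that carry the main findings away from promoters are shown here, and their values follow. Each is the 201 bases around the summit of an H3K4me2 peak, on the plus strand of mm9. None overlaps an annotated exon. The lens only site was seen in lens and not in αTN4 cells. The intronic sites of Meis1, Meis2, Pbx3 and Pbx4 are the distal control αTN4 peaks of the highest fold within their gene bodies, and the site in Dhx34 lies in the widest H3K4me1 island of the Meis3 window, which KD cells lacked. Distal means that the peak lies more than 2 kb from any protein-coding start. Capitals mark matches to TGACAG, the core of the Meis site, or to TGATTNAT, a joint Pbx and Hox site, each on either strand. Neither word contains the other.
Meis1, lens only, chr11:18927049-18927249: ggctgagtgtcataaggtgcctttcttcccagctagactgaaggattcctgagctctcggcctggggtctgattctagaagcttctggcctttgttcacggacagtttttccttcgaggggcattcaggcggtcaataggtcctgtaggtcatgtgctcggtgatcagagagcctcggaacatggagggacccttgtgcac
Meis1 intron, chr11:18888778-18888978: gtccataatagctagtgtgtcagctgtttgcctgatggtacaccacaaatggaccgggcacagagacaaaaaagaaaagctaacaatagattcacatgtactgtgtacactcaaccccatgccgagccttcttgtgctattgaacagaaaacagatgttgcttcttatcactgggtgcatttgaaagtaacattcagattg
Meis2 intron, chr2:115846610-115846810: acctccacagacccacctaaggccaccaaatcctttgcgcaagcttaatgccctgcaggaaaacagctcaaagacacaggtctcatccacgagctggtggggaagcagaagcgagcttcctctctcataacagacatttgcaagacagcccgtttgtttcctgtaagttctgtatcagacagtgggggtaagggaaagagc
Meis3 window, intron of Dhx34, chr7:16793244-16793444: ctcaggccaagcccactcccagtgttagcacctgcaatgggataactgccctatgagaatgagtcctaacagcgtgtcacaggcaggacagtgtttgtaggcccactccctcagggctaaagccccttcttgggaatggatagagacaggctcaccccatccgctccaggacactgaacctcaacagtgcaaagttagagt
Pbx3 intron, chr2:34105072-34105272: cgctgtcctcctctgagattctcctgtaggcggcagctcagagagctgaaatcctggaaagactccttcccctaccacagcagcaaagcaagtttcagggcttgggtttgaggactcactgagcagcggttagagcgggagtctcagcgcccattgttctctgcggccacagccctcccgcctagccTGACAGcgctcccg
Pbx4 intron, chr8:72374676-72374876: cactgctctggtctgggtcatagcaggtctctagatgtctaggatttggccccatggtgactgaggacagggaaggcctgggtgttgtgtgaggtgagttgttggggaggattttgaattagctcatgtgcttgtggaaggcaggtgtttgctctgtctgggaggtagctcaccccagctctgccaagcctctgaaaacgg

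The Pbx3 intron held the only match among these 6 sequences, a single TGACAG. Over all 69 distal control αTN4 peaks of the 6 windows, 6 held TGACAG in the same 201 bases (8.7%), against 16% of 45380 distal control peaks in the whole list. In lens the values were 12 of 81 (14.8%) and 16.9% of 34957. TGATTNAT was found in 1 of the 69 αTN4 and 5 of the 81 lens peaks (1.45% and 6.17%), where the whole lists had 3.14% and 2.53%. These counts describe letters in a narrow window and say nothing of binding.

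Pax6 binding was not detected near any of the 6 genes in αTN4 cells. None of the 504 Pax6 peaks lay in a member window, while 5.94% of all protein-coding gene windows made the same way held at least 1. The nearest peaks stood 670 kb from Pbx2, next to Tapbp, and 897 kb from Pbx3, near Gsn, which encodes the actin-severing protein gelsolin. From Meis2 the nearest was 1776 kb away and from Meis1 2289 kb. Meis3 and Pbx4 had no peak within 8560 and 9234 kb, and 84.9% and 86.0% of all protein-coding genes stood closer to a Pax6 peak than they did. That share was 25.9% for Pbx2, 31.8% for Pbx3, 49.1% for Meis2 and 56.1% for Meis1. Over all protein-coding genes the median distance was 1826 kb. Among the other 10 TALE genes examined (Pknox1, Pknox2, Tgif1, Tgif2 and Irx1 to Irx6), the Tgif1 window held a Pax6 peak. A peak list holds only what passed the caller's threshold, so weaker binding cannot be seen here, and Pax6 binding in lens was not analysed here.

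**Figure D1:**
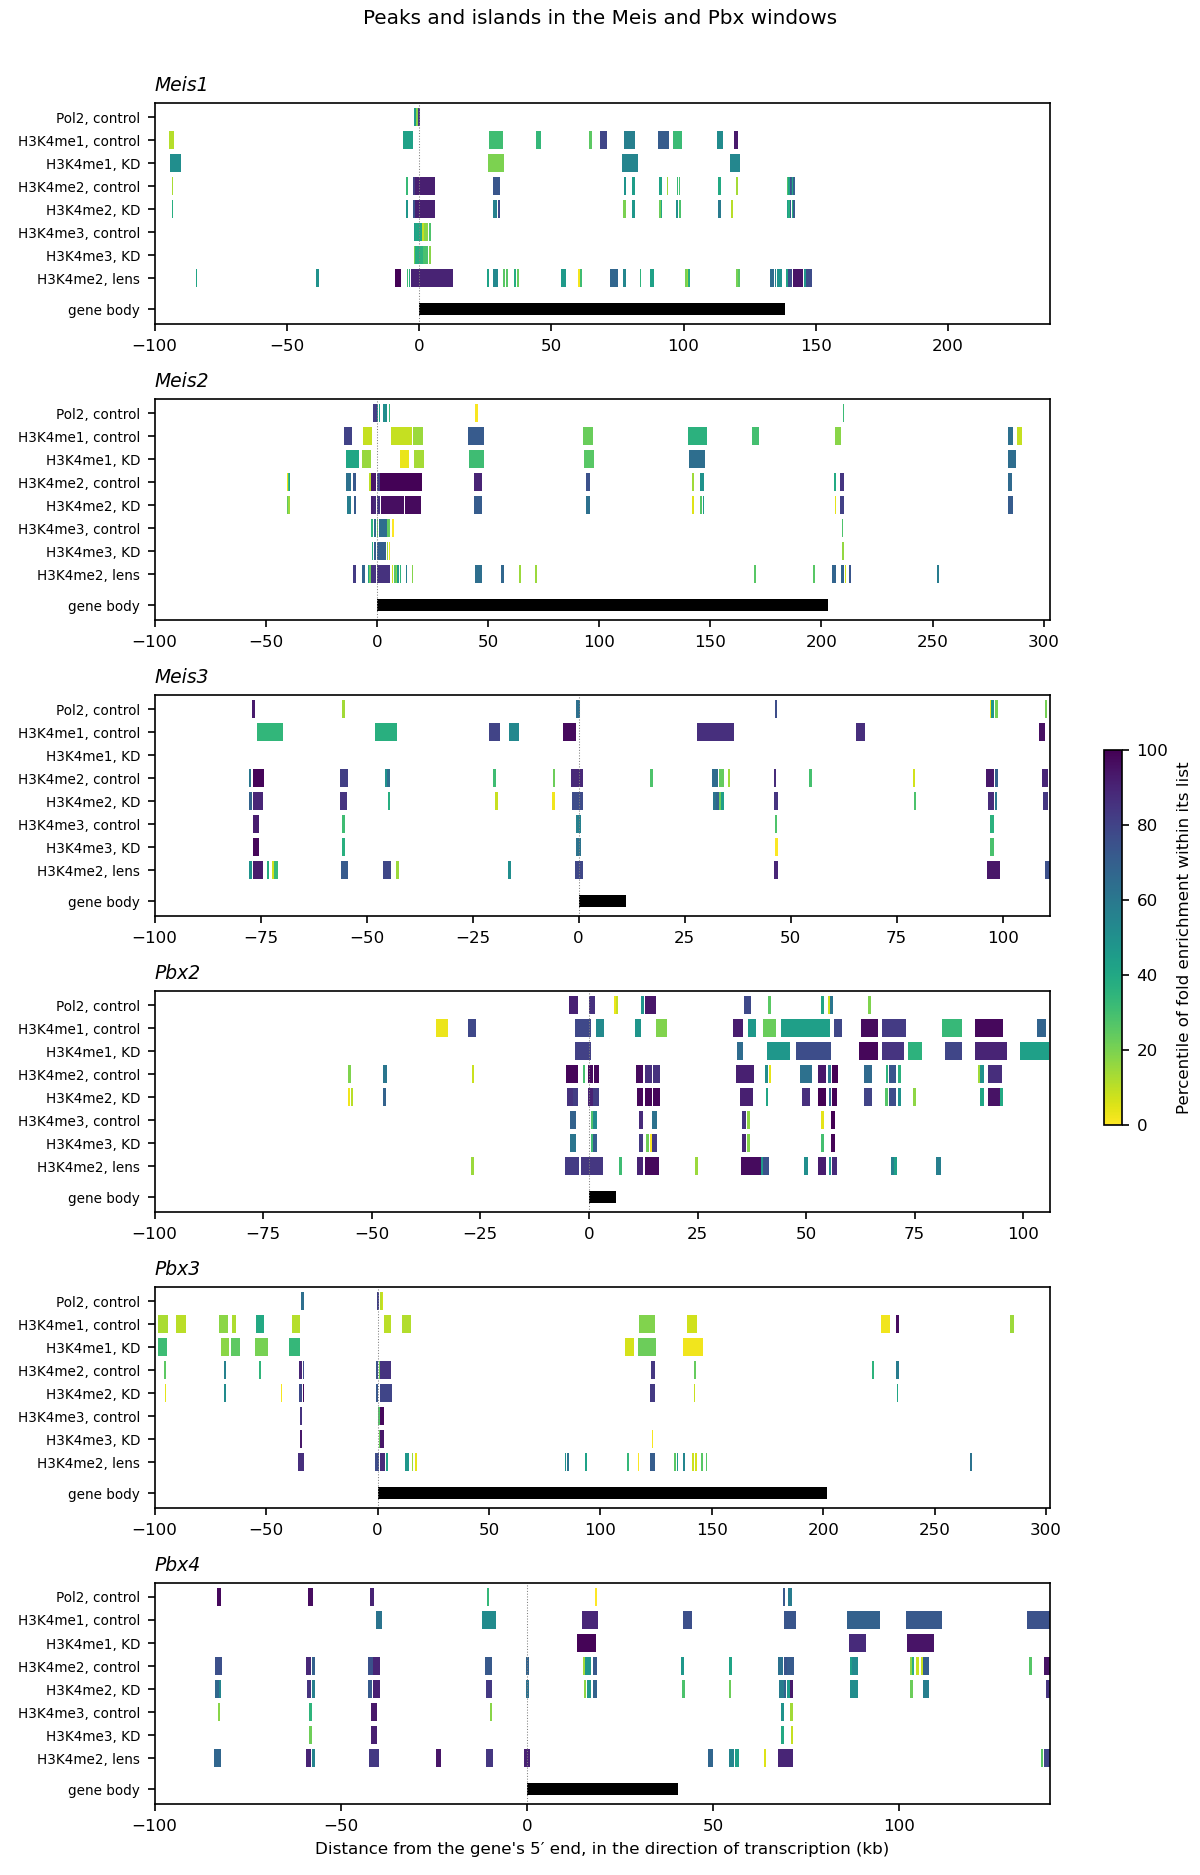
Regions of each list in the 6 gene windows (rows), against the distance in kb from the gene's 5′ end in the direction of transcription, coloured by the percentile of fold enrichment within the list; black bars are gene bodies. No KD H3K4me1 island is drawn in the Meis3 window, and lens H3K4me2 fills more of the Meis1 gene than αTN4 H3K4me2 does.

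At their promoters, 5 of the 6 genes carried the marks of active transcription in αTN4 cells, and Pbx4 did not. A promoter was read as the 2 kb on either side of any protein-coding transcript start. Pol2 was present at 5 of 6 genes, against 48% of all protein-coding genes, and H3K4me3 at the same 5 in control and in KD cells, against 49.1% and 47.7%. H3K4me2 was at all 6 promoters in control cells, KD cells and lens, where 58.2%, 57.1% and 66.8% of all genes had it. H3K4me1 was at 3 of 6 in control cells, against 36%, and at 1 of 6 in KD cells, against 16.7%.

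**Figure D2:**
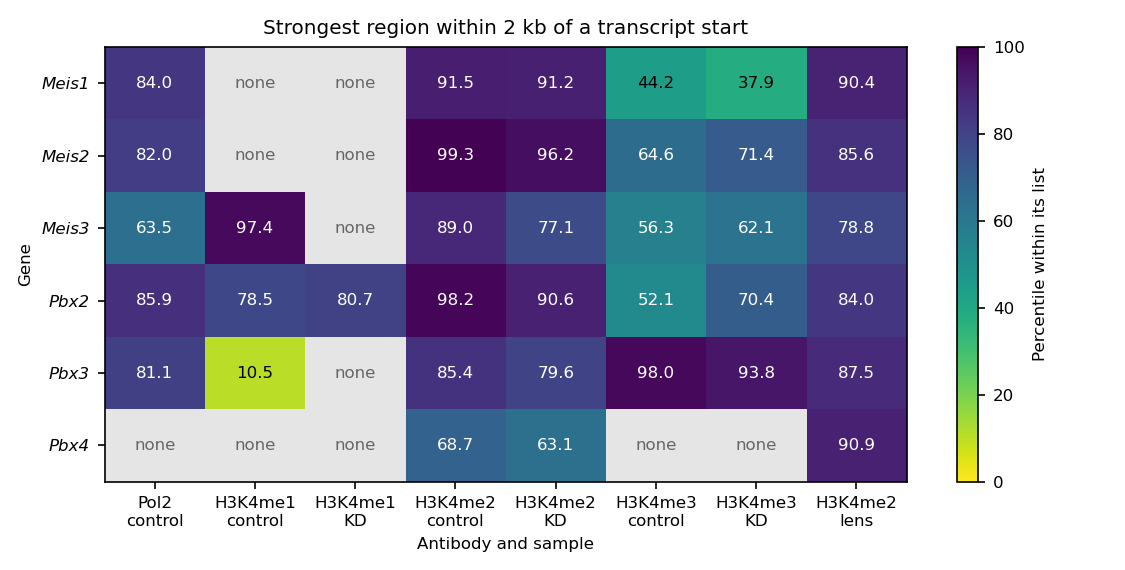
Percentile within its own list (colour and number) of the region of highest fold enrichment within 2 kb of a transcript start, for each gene (rows) and each antibody and sample (columns); grey cells marked none had no region. Pbx4 lacks Pol2 and H3K4me3, and Pbx3 has the highest H3K4me3 percentile in both cell populations.

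Pbx3 had the strongest promoter H3K4me3 of the 6. Its peak at chr2:34225847-34227492 was 44.7-fold over background in control cells, at percentile 98.0 of the control list. The KD peak over it was 26.5-fold, at percentile 93.8 of the KD list. Folds were compared only as ranks within a list, because the median fold of all H3K4me3 peaks itself was 17.4 in control and 13.1 in KD cells. Pol2 at the Pbx3 start reached 18.5-fold (percentile 81.1).

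Meis2 followed, with 22.6-fold H3K4me3 in control cells (percentile 64.6) and 18.0-fold in KD cells (percentile 71.4). Its H3K4me3 was spread over 5 peaks that summed to 6.80 kb in control cells, and over 4 peaks of 6.52 kb in KD cells. Meis3 had a single peak, 19.6-fold in control (percentile 56.3) and 15.7-fold in KD cells (percentile 62.1). Pbx2 had 2, of which the stronger was 18.1-fold in control (percentile 52.1) and 17.7-fold in KD cells (percentile 70.4). The H3K4me3 of Meis1 was the weakest of the 5 that had any, at 15.5-fold (percentile 44.2) and 10.6-fold (percentile 37.9), although Pol2 at its start was 19.8-fold (percentile 84.0). These values take the strongest promoter peak of each list separately. Its rank stood lower in KD than in control cells at Meis1 and Pbx3 and higher at Meis2, Meis3 and Pbx2. At Meis1 the strongest peaks of the lists did not overlap. The KD peak over the strongest Meis1 control peak was 7.14-fold (percentile 20.8). Changes in percentile over the kept H3K4me3 peaks of the Meis1 window ran from −23.4 to 26.6.

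Pbx4 had no H3K4me3 and no Pol2 peak within 2 kb of any of its 3 starts. Its promoter still had an H3K4me2 peak of 871 bp in control cells (11.1-fold, percentile 68.7) and of 745 bp in KD cells (10.1-fold, percentile 63.1). In lens the H3K4me2 peak there was 1579 bp wide and 25.8-fold (percentile 90.9). The 200 bases before the 5′ ends of Pbx3 and Pbx4, at the top and the bottom of the H3K4me3 range, are given 5′ to 3′ on the strand of the gene with CG in capitals.
Pbx3, minus strand, chr2:34228661-34228860: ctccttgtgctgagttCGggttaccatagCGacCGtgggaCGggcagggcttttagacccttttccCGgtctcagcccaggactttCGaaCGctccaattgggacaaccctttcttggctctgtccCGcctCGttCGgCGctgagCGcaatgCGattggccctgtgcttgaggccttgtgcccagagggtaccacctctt
Pbx4, plus strand, chr8:72356323-72356522: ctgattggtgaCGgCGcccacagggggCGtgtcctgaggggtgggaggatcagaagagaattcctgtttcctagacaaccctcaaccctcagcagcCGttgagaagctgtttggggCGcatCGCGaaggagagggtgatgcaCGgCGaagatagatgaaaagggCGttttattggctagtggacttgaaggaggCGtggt

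Those stretches held 13 CG in Pbx3 and 11 in Pbx4, at GC contents of 59.5% and 56.5%. The strongest Pbx3 H3K4me3 peak, chr2:34225847-34227492, lies downstream of that 5′ end. It touches neither these 200 bases nor the 1001 bases counted next. The control H3K4me3 peak nearest the 5′ end, chr2:34227847-34228241, was 9.81-fold (percentile 26.6). In the 1001 bases around the 5′ end, Pbx4 had 51 CG and Pbx3 59. Meis2 had 52, Meis3 46 and Meis1 41, and Pbx2 had the fewest, 20, at percentile 35.2 of all protein-coding genes. The median over all genes was 41.

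Broad H3K4me2 domains lay at promoters of Meis1 and Meis2, that of Meis2 within the gene and short of its 5′ end. In control cells the Meis2 domain chr2:115871429-115890061 was 18.6 kb wide and 26.7-fold (percentile 99.3), whereas the median H3K4me2 peak of the whole list was 865 bp wide. In KD cells 2 peaks, of 10.3 and 7.24 kb, covered 94.2% of it, and the stronger of them stood at percentile 97.5. In lens 8 peaks overlapped the domain, and the widest peak at that promoter was 5.74 kb (23.2-fold, percentile 85.6). At Meis1 the order was the other way: the promoter peak was 7.55 kb wide in control cells (19.6-fold, percentile 91.5), 7.49 kb in KD cells, and 15.7 kb in lens (chr11:18906182-18921861, 25.5-fold, percentile 90.4). Lens is a tissue of epithelial and fibre cells, and more cells with the mark cannot be told apart from more of the mark per cell. Peak width also depends on how the caller joined neighbouring signal in each library.

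The comparison of control with KD cells asks how the H3K4 marks at these genes stood when Pax6 was reduced. Over the 6 windows together, the shares of regions kept were close to those of the whole lists. A control region counted as kept when it shared at least 1 bp with a KD region carrying the same mark. Of 67 control H3K4me1 islands, 31 were kept, or 46.3% (95% Wilson interval 34.9 to 58.1), and the whole list had 46.2%. Of 113 H3K4me2 peaks, 96 were kept, or 85.0% (77.2 to 90.4), against 82.5%. For H3K4me3 the numbers were 33 of 36, or 91.7% (78.2 to 97.1), against 89.9%. All intervals cover counting error only. Regions new in KD cells were few, namely 2 of 33 H3K4me1, 4 of 107 H3K4me2 and 3 of 37 H3K4me3 regions, where the whole KD lists had 6.93%, 7.34% and 2.65%.

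**Figure D3:**
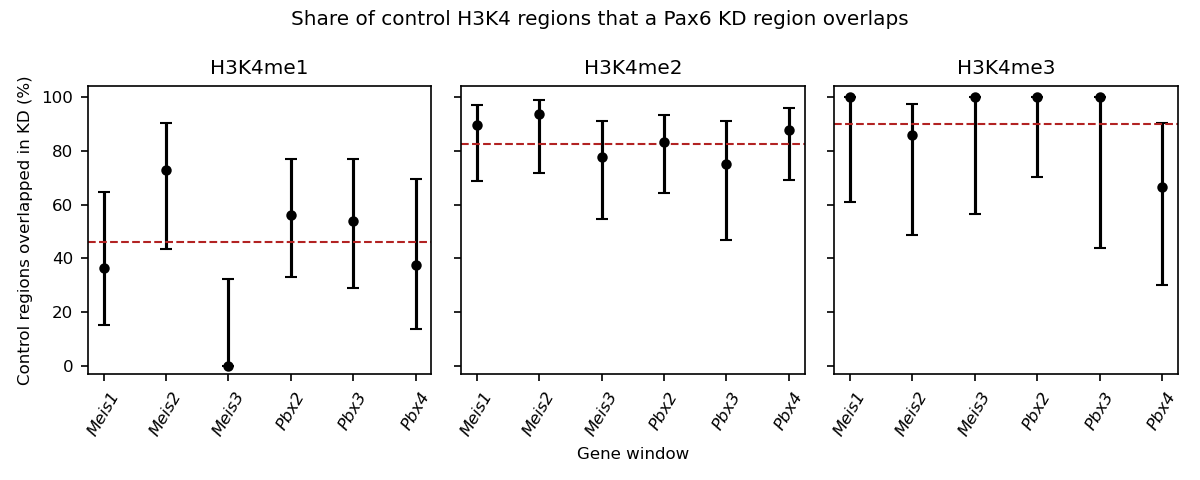
Share of control regions that KD cells also had (points, in percent), per gene window and mark, with 95% Wilson intervals as bars; dashed lines give the share over the whole list. The H3K4me1 share of the Meis3 window is 0, and its interval ends below the dashed line at 46.2%. The intervals treat the regions of a window as independent.

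The Meis3 window stood apart from that average in H3K4me1. It kept 0 of 8 control islands (upper bound of the interval 32.4%), and no KD island was called anywhere in it. Of these 8 islands 0 overlapped the Meis3 gene body, and 3 lay nearest to its start. Meis1 kept 4 of 11 and Pbx4 3 of 8, while Pbx3 kept 7 of 13, Pbx2 9 of 16 and Meis2 8 of 11. For every gene other than Meis3 the interval contained the whole-list share. These intervals treat the islands of a window as independent, and the whole-list share is not matched for reads. They are therefore no test of a difference.

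The absence of H3K4me1 islands around Meis3 in KD cells was the clearest difference between the populations. Of all gene windows with a control island, 21.8% (3913 of 17937) held no KD island. Among those with at least 8 control islands, 1.04% (84 of 8113) held none. That class was chosen after the Meis3 values were seen, and windows of neighbouring genes share islands. The nearest KD islands lay 129 kb before and 109 kb after the gene, with 20 KD islands against 38 control islands within 500 kb. The lost islands ranged from 34 to 178 ChIP reads. The largest, chr7:16788601-16797400, was 8.80 kb wide with 178 ChIP and 72 input reads (5.26-fold) and lay within Dhx34, an RNA helicase gene downstream of Meis3. The island at the Meis3 promoter itself, chr7:16757001-16760000, had 56 ChIP and 16 input reads, where the median control island of the whole list had 59 ChIP reads. By fold, at 7.45, it stood at percentile 97.4 of the control list.

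The other marks of the Meis3 window were largely retained in KD cells. All 5 control H3K4me3 peaks and 14 of 18 H3K4me2 peaks were kept. The H3K4me2 peak over the Meis3 start was 18.5-fold in control (percentile 89.0) and 14.9-fold in KD cells (percentile 77.1). The H3K4me2 peak inside the lost Dhx34 island, whose sequence is given above, was 10.2-fold in control cells (percentile 65.6) and the KD peak over it stood at percentile 67.7. H3K4me1 was missing from the KD list at sites where H3K4me2 was still listed.

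How often an island was kept moved with its number of reads, and KD islands as a whole held fewer ChIP reads than control islands, a difference whose part in the lost islands was not tested. Over the whole list 17.0% of islands under 50 reads, 47.2% of those with 50 to 99 and 91.4% of those with at least 100 reads were kept. In the member windows the counts were 5 of 22, 11 of 27 and 15 of 18. The 3 islands of at least 100 reads that were lost were those of 178 and 106 reads in the Meis3 window, at Dhx34 and Napa, and that of 116 reads at the Gatad2a promoter in the Pbx4 window. Gatad2a encodes a subunit of the NuRD remodelling complex and Napa a vesicle fusion protein. Islands away from starts were kept in 26 of 46 cases (56.5%, whole list 47.4%) and those within 2 kb of a start in 5 of 21 (23.8%, whole list 42.6%).

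Where islands were kept, their read density had a median change close to that of the whole list. The log2 ratio of KD to control ChIP reads per kb, taken relative to its median over all 17559 kept islands (−0.32), had a median of −0.01 over the 31 kept islands, with a 95% interval of the median from −0.22 to 0.12. Of these 31, 16 were below 0, against 50% of all kept islands. The quartiles were −0.25 and 0.16 for the members, and −0.22 and 0.23 for all islands. The sign of a single change depends on this centring. Before it all 31 ratios were below 0, as were 82.1% of all kept islands. When scaled by total ChIP reads in islands 27 of the 31 were above 0, as were 16438 of all 17559. The islands were also called separately in each library, so a lower density can come with a wider KD island and no fewer reads. Ranked by fold over input, 13 of the 31 stood lower in the KD list and 18 higher, against 8934 lower and 8625 higher of all kept islands.

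**Figure D4:**
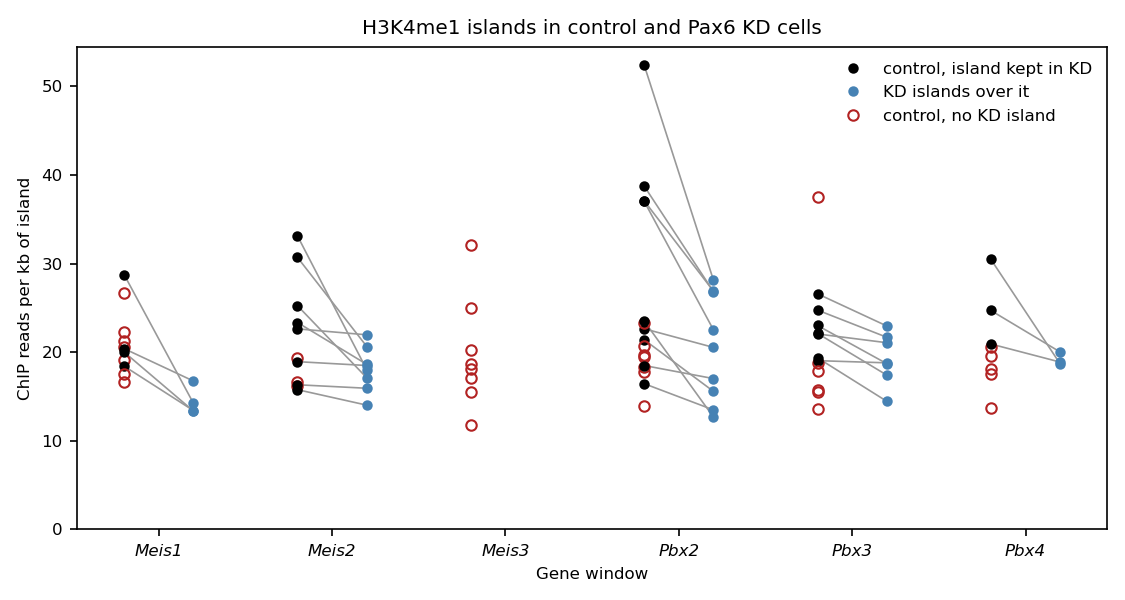
ChIP reads per kb of each control H3K4me1 island (left point of each pair) and of the KD islands over it (right point), by gene window; open circles are control islands with no KD island. All 8 Meis3 islands are open, and the steepest line is the Tnxb island of the Pbx2 window, from 52.4 to 28.1 reads per kb.

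At Meis2 the intronic element 44.9 kb from the 5′ end, whose sequence is given above, carried H3K4me1, H3K4me2 and a Pol2 peak. Its island chr2:115843401-115850600 had 221 reads (30.7 per kb) in control cells and 132 reads (20.6 per kb) in the KD island over it, a log2 change of −0.26 ± 0.16 (counting SE) relative to all kept islands, and its rank by fold went from percentile 71.5 to 31.1. The H3K4me2 peak there was 18.9-fold (percentile 90.0), its KD counterpart stood at percentile 71.4, and lens had a peak at percentile 63.7 at the same place. The Pol2 peak, at 3.02-fold, was among the weakest of its list (percentile 1.06). Upstream of Meis2, the island chr2:115903001-115906200 had 106 reads over 3.2 kb in control cells, and the KD island over it had 108 reads over 6 kb. Its density was thus lower in KD cells (−0.56 ± 0.20) while its number of reads was not. Deeper in the gene, the island chr2:115743201-115751600 had 190 reads (22.6 per kb) and 158 reads (21.9 per kb), a centred change of 0.27 ± 0.15. Of the 8 kept islands of Meis2, 4 were below 0 relative to all kept islands, 8 before centring and 1 when scaled by total reads.

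In Pbx2, the window richest in H3K4me1, the largest values belonged to neighbours. The island of most reads in any member window, chr17:34817001-34823600 in Tnxb, the gene of the matrix protein tenascin X, had 346 reads (52.4 per kb) in control and 208 (28.1 per kb) in KD cells, a change of −0.58 ± 0.13. Its H3K4me2 moved in rank the opposite way, from percentile 87.0 to 95.1. The island that spans the Pbx2 start itself, chr17:34725001-34728600, had 77 reads (21.4 per kb) and 56 reads (15.6 per kb), a change of −0.14 ± 0.25. It was the only kept island at the promoter of a member.

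In Pbx4 the intronic island chr8:72371401-72375600, 17.0 kb from the 5′ end, had 128 reads (30.5 per kb) in control and 97 (18.7 per kb) in KD cells, a centred change of −0.39 ± 0.19. When scaled by total reads the value was 0.12, and by fold over input the island stood higher in the KD list, at percentile 99.1 against 89.3. It overlapped the H3K4me2 peak shown above and a Pol2 peak of 2.65-fold (percentile 0.36), the only Pol2 peak within the Pbx4 gene. Lens had no H3K4me2 peak there. In Pbx3 the intronic island chr2:34104001-34111200 had 137 reads in control and 154 in KD cells, a change of 0.30 ± 0.17. The H3K4me2 peak in it (16.3-fold, percentile 83.7) was also found in KD cells (percentile 82.8) and in lens (15.1-fold, percentile 70.8). A weak H3K4me3 peak of 4.02-fold was called at this intronic site in KD cells and not in control cells. The strongest Pbx3 island by fold that was lost, chr2:33994601-33996200 beyond the 3′ end, had 60 ChIP and 18 input reads (7.10-fold, percentile 96.7).

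In Meis1 the 4 kept islands had 40 to 106 reads, and their median centred change was −0.21. The lowest change of any kept island in the 6 windows was at chr11:18798201-18799800 in a Meis1 intron, with 46 reads over 1.6 kb in control cells and 54 over a KD island of 3.8 kb (−0.70 ± 0.29). By fold it went from percentile 93.2 to 53.9, and its number of reads was not lower. The island of most reads, chr11:18887201-18892400, had 106 reads (20.4 per kb) in control and 97 (16.7 per kb) in KD cells, a change of 0.03 ± 0.20. It holds the intronic H3K4me2 peak shown above, which was 12.6-fold (percentile 73.4) and whose KD counterpart stood at percentile 77.8. The island next to the promoter, chr11:18921401-18925200, with 63 reads, was not kept.

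In the Pbx4 window the island of most reads, chr8:72458401-72468200 in Gatad2a, had 242 reads in control and 148 in KD cells, a change of 0.01 ± 0.15. The lost islands of most reads had 89 reads in an intron of Meis1, 54 in an intron of Meis2, 51 at Agpat1 in the Pbx2 window and 69 at Mapkap1 in the Pbx3 window. The highest H3K4me2 folds were at Napa in the Meis3 window (24.9-fold, percentile 98.5, KD percentile 89.3), at Atf6b in the Pbx2 window (27.9-fold, percentile 99.6, KD percentile 99.6), at Mapkap1 in the Pbx3 window (18.7-fold, percentile 89.7, KD percentile 77.8) and at Gatad2a in the Pbx4 window (21.7-fold, percentile 95.1, KD percentile 85.1). Atf6b, an endoplasmic reticulum stress gene, also had the highest H3K4me3 in any of the 6 windows, 54.6-fold in control cells (percentile 99.8, KD percentile 99.1). None of the lost H3K4me2 peaks was above the median fold of the whole list, 6.90. Their highest folds were 3.92 in Meis1, 3.69 in Meis2, 6.90 around Meis3, 4.84 around Pbx2, 5.29 around Pbx3 and 4.61 around Pbx4.

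H3K4me2 and H3K4me3 ranks at kept peaks moved little in the median. The change in percentile, from the control peak to the strongest KD peak over it, had a median of −2.33 (interval −5.27 to −0.27) over 96 H3K4me2 peaks, and the whole list had −1.85. It was below 0 for 61 of them, where 57.4% of all kept peaks were below 0. By gene the medians ran from −5.82 for Pbx3 to 2.21 for Meis1. For 33 H3K4me3 peaks the median was −0.63 (interval −4.66 to 5.81) and that of the whole list −1.92, with 17 peaks below 0, against 58.8% of all kept peaks. The H3K4me3 peaks that were lost were weak. They were an intronic Meis2 peak of 3.30-fold (percentile 0.33) and peaks of 7.55-fold at Zfp963 and Lpar2 in the Pbx4 window.

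The comparison of lens with αTN4 cells asks how far the cell line carries the H3K4me2 of the tissue at these genes. In the 6 windows, 65 of 113 control αTN4 peaks overlapped a lens peak, or 57.5% (48.3 to 66.2), against 41.3% of the whole list. In the other direction 58 of 121 lens peaks overlapped a control αTN4 peak, or 47.9% (39.2 to 56.8), against 45.4%. Peaks at promoters were shared more often than distal ones. All 44 αTN4 peaks within 2 kb of a start overlapped lens, against 88.8% in the whole list, and 21 of 69 distal peaks did (30.4%, interval 20.8 to 42.1), against 19.4%. Of lens peaks, 34 of 40 within 2 kb of a start overlapped control cells (85%, whole list 75%), and 24 of 81 distal ones (29.6%, whole list 27.4%). Pax6 KD cells overlapped 54 of the 121 lens peaks, where the whole lens list had 43.3%. Of the 63 lens peaks missed by control cells, 0 were found in KD cells, close to the 1.2% of the whole list.

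**Figure D5:**
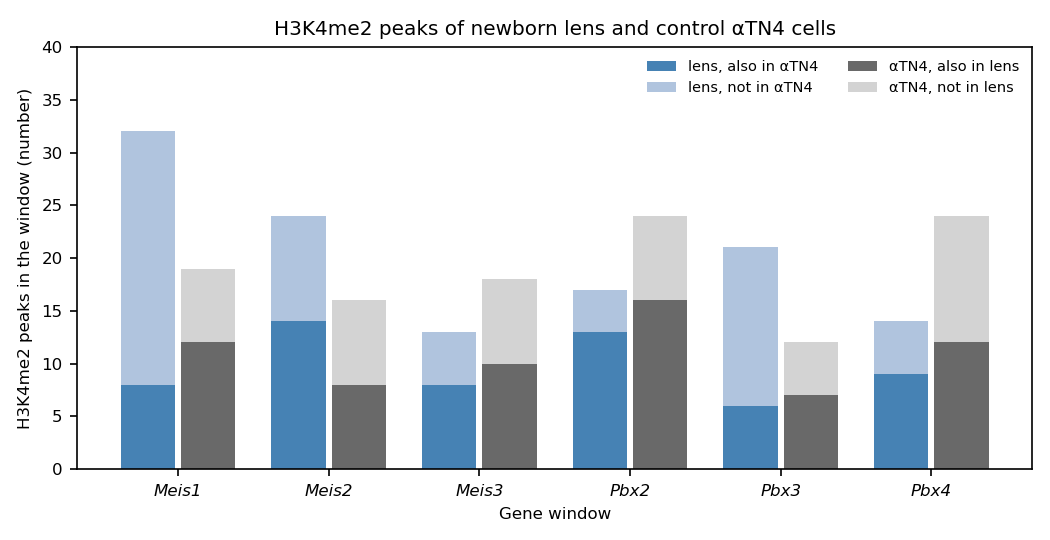
Numbers of H3K4me2 peaks of newborn lens (left bars, blue) and control αTN4 cells (right bars, grey) per gene window, split by whether they overlap a peak of the other list. Meis1 has 24 lens peaks and Pbx3 15 with no αTN4 peak.

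Meis1 carried far more H3K4me2 in lens than in the cell line. Lens peaks numbered 32 and covered 48.3 kb, or 14.3% of the window, at percentile 95.7 among all gene windows in the lens list. The 19 control αTN4 peaks covered 20.1 kb, or 5.94% of the window, at percentile 59.6 in their own list, and the KD peaks 19.0 kb (percentile 63.0). Of the lens peaks, 24 had no αTN4 peak. The strongest of them, chr11:18925730-18927983, lies 8.19 kb before the 5′ end and is the lens only sequence shown above. At 34.2-fold it stood at percentile 99.5 of the lens list and was stronger than the lens peak at the Meis1 promoter. Others filled the introns, among them chr11:18843771-18846743 (12.9-fold, percentile 67.4), and a cluster crossed the 3′ end, from chr11:18770237-18772482 (18.8-fold) to chr11:18784914-18786411 (11.6-fold). αTN4 cells had 6 short peaks within that cluster, of 4.72- to 13.4-fold.

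Pbx3 resembled Meis1 in this respect, with 15 of 21 lens peaks absent from αTN4 cells, most of them weak and intronic. The strongest distal one, chr2:33961771-33963015 beyond the 3′ end, was 10.0-fold (percentile 61.8). Its covered length differed less, 20.9 kb in lens and 15.3 kb in control cells. Meis2 had 24 lens peaks, of which 14 overlapped αTN4 peaks, and here the cell line had the greater length, 38.3 kb against 27.8 kb in lens. As percentiles among all gene windows these lengths stood at 78.5 and 74.6. The strongest Meis2 lens peak without an αTN4 peak was chr2:115678081-115679010 beyond the 3′ end (16.6-fold, percentile 73.3), and within the gene it was chr2:115834443-115835620 (12.9-fold, percentile 67.1).

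In the gene-dense windows most lens peaks were shared, 8 of 13 around Meis3, 13 of 17 around Pbx2 and 9 of 14 around Pbx4. The strongest lens-only peak of these 3 windows was at the promoter of Gmip, chr8:72332244-72333390, 27.6-fold and 23.6 kb before Pbx4. Lens also covered less of the Meis3 window than αTN4 control cells did, 16.0 against 17.9 kb, and less of the Pbx2 window, 26.6 against 32.2 kb. The whole lens list was likewise shorter, at 58.9 against 74.3 Mb. As percentiles among all gene windows, lens was not lower. Lens stood at 78.0 and control cells at 74.4 around Meis3, and at 93.7 and 93.1 around Pbx2. The Tnxb site of the Pbx2 window, with 17.6-fold H3K4me2 in control cells, had no lens peak.

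The other TALE genes gave a comparison from the same class. Pol2 stood at the promoters of 7 of the 10, H3K4me3 at 6 in control and at 6 in KD cells, and H3K4me2 at 8 in control cells and at 9 in lens. Their windows kept 34 of 52 control H3K4me1 islands (65.4%), 81 of 92 H3K4me2 peaks (88.0%) and 23 of 24 H3K4me3 peaks (95.8%). Within the class the H3K4me1 shares were unlike. The Pknox and Tgif windows kept 33 of 40 islands and the Irx windows 1 of 12. Low H3K4me1 shares were thus not confined to Meis3. Each Irx window had only 1 to 4 control islands, however, where the Meis3 window had 8.

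By the share of the window covered in each of the 9 lists, expressed as percentiles among all protein-coding genes, Meis2 and Pbx4 were the most alike of the 6, at a distance of 23.4 percentile points. Pbx2 and Pbx3 were the least alike, at 119. The genes closest to Meis1 by this measure were Tle3, Ddx54 and Gm16314 (17.6 to 19.3), to Meis2 4931406B18Rik, Sspo and Mmab (7.93 to 10.6), and to Meis3 Mta1, Lrfn3 and 0610007C21Rik (15.1 to 18.2). Closest to Pbx2 were Cuta, Recql5 and Phf1 (5.72 to 6.35), to Pbx3 Tbc1d22a, Fam118a and Baz2b (11.4 to 12.9), and to Pbx4 Gpr132, Prap1 and Cdca4 (9.47 to 11.3). The median distance of all genes from a member ranged from 81.5 for Meis2 to 126 for Pbx2.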

How the data were processed

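Reads were aligned to mm9 by the authors with Bowtie. MACS2 gave the peaks of Pax6, Pol2, H3K4me2 and H3K4me3, SICER gave the H3K4me1 islands, both at default settings, and blacklisted regions were removed, as the methods state. For MACS2 peaks the deposited values are the fold enrichment, a ratio over background, and the −log10 of p and q. SICER islands carry, as deposited, counts of ChIP and control reads (the latter called input here), a fold, a p-value and an FDR. Peak names of the H3K4me2 lists hint at pooled replicates, which the labels do not state. The Pax6 and Pol2 lists were assigned by sample title, because the antibody field of each names the other's antibody. KD ChIP-seq used a single shRNA line. RNA-seq and input libraries were not analysed here.

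Genes and starts were taken from GENCODE vM1, and sequences from the NCBIM37 (mm9) genome. Percentiles are ranks of fold within a list. KD density was the sum of ChIP reads over the overlapping KD islands divided by their summed width. Overlaps were checked on simulated lists. Shares have 95% Wilson intervals, medians have intervals from binomial order statistics over regions, and count changes have a Poisson SE, all covering counting error or spread among regions only. Named were, by rule, regions at members' promoters, the control region of most reads (H3K4me1) or highest fold and the strongest lost one per member, other TALE genes, and the 3 genes of the most similar coverage. Other named regions were chosen after their values were seen. The members and gene lists were chosen with earlier results of these data known. Python 3.11.15, pandas 2.3.3 and scipy 1.17.1 were used. Alternatives were windows of 50 and 2 kb, promoters of 1 kb, gene 5′ ends only, an FDR of 1e-06 or a −log10 q of 5, overlap of 50% of the width, ranks by −log10 p and scaling by total island reads, and, added later, no scaling and reads not divided by width.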

Additional observations from a re-analysis of the deposited data

How the results depend on the processing

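The 13 counts, shares and medians over the 6 windows were recomputed under the alternatives listed in the methods, which gave 52 values. Of these, 50 stayed within the 95% interval of the reported value or, for counts, at the same count. The 2 exceptions concerned the median change of H3K4me1 density at kept islands, −0.01 when centred on the median of all kept islands and 0.50 when scaled by total ChIP reads in islands or −0.33 with no scaling, so its sign rests on the scaling. Each scaling moves every kept island by the same amount. With reads not divided by island width the centred median was 0.01. No scaling and undivided reads were chosen after seeing the data. The share of control H3K4me1 islands kept ranged from 40.4% to 50% over the windows, the threshold and the overlap required, and no Pax6 peak was found in any window size or at the stricter threshold. The median H3K4me3 rank change, −0.63, became 3.06 in windows of 2 kb and 0.63 at the stricter threshold, within its interval. No paired analysis was possible because each condition has 1 library and no test was made. With 1 library per condition no library could be left out. Islands of few reads were kept less often than those of many, which limits what a lost island shows.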
